A study of Mus musculus with 10 samples.

Results

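The wild-type proximal jejunum, the upper part of the stretch of small intestine that follows the duodenum, was described from the 5 libraries labelled WT, out of 10 libraries in the series. They carry the numbers 1, 3, 4, 5 and 6 and were chosen by their genotype label alone. RNA-seq was run on total RNA, with 1 library per mouse, and the WT mice were littermates of mice whose intestinal epithelium lacks HuR, the RNA-binding protein encoded by Elavl1. Whether the WT mice carried floxed alleles, and their strain, age, sex, diet, feeding state and hour of collection, were not stated in the labels used here, and no library of the knockout group enters any value below. Whole tissue was used, so in every result fewer cells of a type and less RNA per cell cannot be told apart.

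The table holds 24368 genes, of which 14009 had a mean of 10 or more normalised reads over the WT libraries. A normalised read is a count after division by its library's size factor. Libraries ran from 16942919 (WT 6) to 17809271 (WT 1) recovered reads, and 18993 to 19499 genes had at least 1 read. Within a gene, libraries are mostly compared on normalised reads. Between genes, levels are compared only after dividing by gene length and scaling each library to a sum of 1000000 units. This is called the length-scaled level here. List sums and some single genes are also given per library in these units. Mitochondrial genes took from 5.48% (WT 5) to 12.6% (WT 1) of the length-scaled level, which lowers the units of other genes by unlike amounts.

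The jejunum takes up most of the fat, sugar and amino acids of a meal. Its villi are covered by enterocytes, which split sugars and peptides at a brush border, re-esterify fatty acids and ship them into lymph as chylomicrons built on apolipoprotein B. Goblet cells make mucus, Paneth cells at the crypt base release defensins, enteroendocrine cells release hormones, tuft cells sense luminal signals, and plasma cells below the epithelium make the immunoglobulin A that is carried into the lumen.

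Sequences are shown here for 1 unusual member of the leading genes and for the regions upstream of genes that lead the tissue or move together in it. Gm23935 (ENSMUSG00000076258, 57 bases, chromosome 16, 11144125 to 11144181 in mm10) is annotated as a miRNA gene and ranked 4 by length-scaled level. It ranked 292 by reads, so the rank of 4 rests on division by a length of 57 bases and does not show that a miRNA is abundant. Its sequence in the GENCODE M21 transcripts is shared, base for base, by Gm24270 and Gm24245, so its reads cannot be assigned with certainty.

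Gm23935: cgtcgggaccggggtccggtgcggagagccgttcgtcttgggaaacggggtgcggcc

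The next 5 sequences are the 100 bases before the start that RefSeq gives on GRCm38.p6, printed 5′ to 3′ on the strand of the gene, with TATAAA, the core of a TATA box, in capitals. They are chr3:122894972-122895071 on the plus strand for Fabp2, chr9:98490437-98490536 on the plus strand for Rbp2, chr11:99438154-99438253 on the minus strand for Krt20, chr6:78370785-78370884 on the plus strand for Reg3b and chr6:78468875-78468974 on the minus strand for Reg3g. The start in the deposited table differs for some of these genes, and the last bases of the Reg3b stretch lie in an exon of a GENCODE transcript.

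Fabp2: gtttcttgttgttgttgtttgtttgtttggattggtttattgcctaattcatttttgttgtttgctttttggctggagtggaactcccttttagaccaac
Rbp2: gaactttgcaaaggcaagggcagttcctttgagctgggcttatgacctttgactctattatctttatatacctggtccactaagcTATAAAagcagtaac
Krt20: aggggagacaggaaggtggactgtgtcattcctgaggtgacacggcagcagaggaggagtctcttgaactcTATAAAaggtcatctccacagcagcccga
Reg3b: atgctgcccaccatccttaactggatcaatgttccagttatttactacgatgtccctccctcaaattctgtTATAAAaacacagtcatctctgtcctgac
Reg3g: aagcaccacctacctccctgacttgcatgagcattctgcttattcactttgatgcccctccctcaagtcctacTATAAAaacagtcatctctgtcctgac

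TATAAA begins 29 bases before the start in Krt20 and Reg3b, 27 before it in Reg3g and 15 before it in Rbp2, and Fabp2 has no exact match in these 100 bases. The Reg3b and Reg3g stretches share their last 20 bases without a mismatch. Over the whole window of 250 bases before to 50 after the start, 65 of the 100 genes with the highest length-scaled level had a RefSeq entry. TATAAA, searched on both strands, stood in 29.2% of these 65, against 9.44% of 10306 genes with a WT mean of 10 or more and 15.7% of all 27025 promoters. On the gene strand and beginning 40 to 21 bases before the start, it stood in 9.23%, 1.82% and 2.41% of the same sets. GATAA, a core bound by GATA factors, stood on either strand in 36.9%, 19.9% and 28.4%. CAAAGTCCA, a core of HNF4 sites, stood in 3.08% of the leading genes, which is 2 genes, against 0.592% and 0.555%. A match in such a window is a description of letters, not a binding site.

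The WT jejunum put much of its transcript output into few genes. The 10 most abundant genes of each library held 11.3% ± 0.676 of the normalised reads (SD, n = 5), the 100 most abundant 36.3% ± 1.08 and the 1000 most abundant 71.2% ± 0.926. Between 241 (WT 6) and 295 (WT 4) genes made up 50% of the reads. On the length-scaled level the 100 highest genes held between 47.8% (WT 4) and 51.5% (WT 6). Membership of the top, though not the order within it, was largely shared between mice. By reads, 11 genes stood in the top 20 of every library and 81 in the top 100 of every library.

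Fat handling genes led the tissue. Fabp2, the intestinal fatty acid-binding protein (ENSMUSG00000023057, chromosome 3, 122895072 to 122899506), had the highest mean length-scaled level, with 50841, 40603, 37591, 38601 and 44975 units in WT 1, 3, 4, 5 and 6. Its mean was 42522 ± 5445 (SD, n = 5), and it stood above the gene next in order in 5 of 5 libraries. That gene was Apoa1, the main apolipoprotein of HDL and a part of chylomicrons (chromosome 9, 46228580 to 46230466), at 18983, 30614, 32120.3, 32430.5 and 32496 units. WT 1 was the low library for Apoa1, well below the other 4, which lay close together. The top of the list is a mixed group of absorptive, mitochondrial and immune genes.

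The third gene, mt-Co1, a mitochondrially encoded subunit of cytochrome oxidase, stood at 26594 ± 8648 units and was above Gm23935 in only 2 of 5 libraries. Reg3b, a secreted antibacterial lectin, averaged 21042 ± 17616 and Rbp2, the retinol-binding protein of enterocytes, 15380.0 ± 652. Between Apoa1 and Fabp1 each gene stood above the next in only 2 or 3 libraries, except mt-Nd1 over mt-Cytb (5 of 5), so that most of these ranks do not differ beyond the spread between mice. Further down, Krt20, a keratin of mature enterocytes, was above Krt8, the keratin of simple epithelia, in 5 of 5 libraries, at 11428 ± 1177 and 11002 ± 980.0. B2m, the light chain of MHC class I, averaged 11991 ± 770.2 and Fabp1, the liver-type fatty acid-binding protein, 11458 ± 2665.

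**Figure D1:**
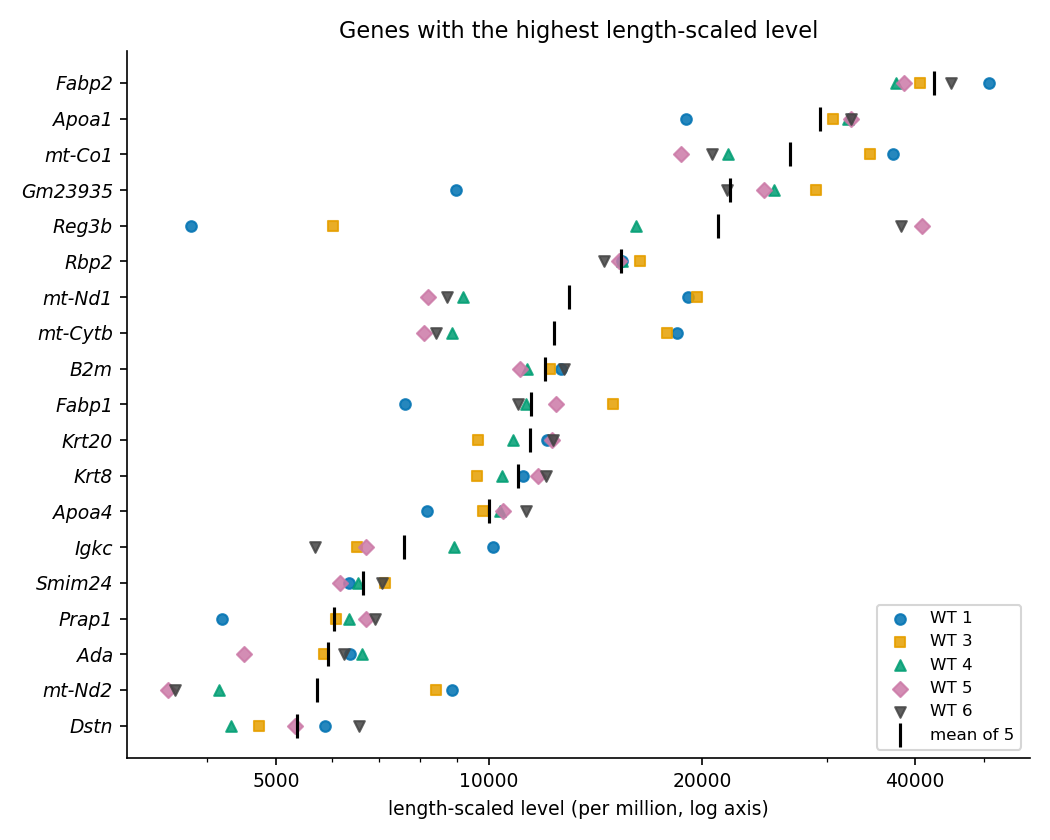
Length-scaled level (units of 1000000 per library, log axis) of 19 of the 20 genes with the highest mean, with 1 marker per WT library and a bar at the mean of 5. Reg3b runs from 3795 units in WT 1 to 40978 in WT 5, whereas Rbp2 stays between 14516 and 16348.

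Ranking by reads favours long genes. Apob, the scaffold of the chylomicron, ranked 5 by reads and 80 by length-scaled level, and Sis, the sucrase-isomaltase of the brush border, 13 and 72. Gm23935 moved the other way, from 292 by reads to 4 by length-scaled level. The top 100 by the 2 measures shared 77 genes and the top 20 shared 12. The median length was 2705.5 bases in the top 100 by reads, 1945.5 in the top 100 by length-scaled level and 4109 among all genes with a mean of 10 or more.

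By gene class, protein-coding genes of the nuclear genome held 94.5% ± 1.54 of the reads and 85.2% ± 3.11 of the length-scaled level (SD, n = 5). Genes of the mitochondrial genome took 5.73%, 5.88%, 3.33%, 2.69% and 3.11% of the reads in WT 1, 3, 4, 5 and 6. The libraries thus fell into a higher pair, WT 1 and WT 3, and a lower group of 3, with no value between. The 13 mitochondrial protein-coding genes carried this, from 2.46% in WT 5 to 5.42% in WT 3. Immunoglobulin segments held 0.420% ± 0.0687 of the reads, pseudogenes 0.503% ± 0.0349 and long non-coding classes 0.243% ± 0.00779.

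In the miRNA class 1 gene carried most of the signal. The miRNA class took 2.22% ± 0.768 of the length-scaled level with only 4 of its 120 genes at a mean of 10 or more. Of the reads it took only 0.0529% ± 0.0193, so the larger share comes from dividing by very short lengths. Gm23935 alone had a mean of 21889 ± 7673 units, with 8987, 29021, 25248, 24508 and 21684 in WT 1, 3, 4, 5 and 6. WT 1 was the low library. CT010467.1, the leading gene of the rRNA class, was low in the same library, at 5133 normalised reads against 12909 to 16028 in the other 4. Lars2, a mitochondrial leucyl-tRNA synthetase gene, was also lowest in WT 1, at 1468 against 2986 to 3740.4. Among the long non-coding RNAs, AW112010 stood at 402 ± 29.0 units, Malat1, a nuclear-retained RNA, at 42.0 ± 3.56 and Neat1, the scaffold of paraspeckles, at 19.9 ± 8.26. The highest pseudogenes by reads included Gm28437, at 2053, 2629.6, 1527, 1236 and 7707 normalised reads, with WT 6 far above the rest.

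The machinery of fat absorption was abundant, and most of its genes varied about as much between mice as other genes of their level. The 12 genes listed for chylomicron assembly and apolipoproteins summed to 50560 ± 6472 units (SD, n = 5), with 39413 in WT 1 and 50670 to 55521 in the other 4. Apoa1, lowest in WT 1, alone gave 29329 ± 5834 units of this sum, so the low sum there does not describe the list gene by gene. Of the 11 with a mean of 10 or more, 5 were highest and 3 lowest in WT 1 by normalised reads. Their median CV, the SD over the mean among the 5 libraries, was 13.5%. It was 19.6% over all 14009 genes and 13.3% over the 262 genes with means of 10000 or more. Mttp, the microsomal transfer protein that loads fat onto apolipoprotein B, averaged 1899 ± 315 units. The 10 genes for uptake and binding of fatty acids summed to 57455 ± 4037, of which Acsl5, an acyl-CoA synthetase, gave 1698 ± 189 and Slc27a4, a fatty acid transport protein, 1081 ± 157. Cd36, a fatty acid translocase, was lower and less even, at 51.3 ± 19.2.

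Both Dgat enzymes form triglyceride from diacylglycerol, and Dgat2 varied more between mice than Dgat1. Dgat2 had 34379, 21379, 29136, 48691 and 52343 normalised reads in WT 1, 3, 4, 5 and 6 (CV 35.2%), with WT 3 lowest and WT 5 and WT 6 highest. Dgat1 had 12665, 13558, 13234, 11501 and 12239 (CV 6.44%). Mogat2, which makes diacylglycerol from monoacylglycerol, lay between 9683 and 12220.3. The 16 triglyceride genes had a median CV of 15.5%, and those for fatty acid oxidation, 14 genes, 14.8%. Cholesterol synthesis was less even, with a median CV of 27.3% over 15 genes and a summed level between 425 (WT 4) and 773 (WT 6) units. Npc1l1, the cholesterol importer, averaged 525 ± 99.6.

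Sugar and peptide digestion genes were also abundant. The 11 sugar genes summed to 15598 ± 1354 units and the 12 brush border peptidases to 11773 ± 1382. Slc5a1, the sodium-glucose cotransporter SGLT1, was among the evenest of these, with 81044, 73069.7, 73158, 75180.5 and 75413 normalised reads (CV 4.30%). Sis was not, with 134339, 137610.0, 65766, 88178 and 103162 (CV 28.9%), WT 1 and WT 3 being the high libraries. Anpep, aminopeptidase N, averaged 3751 ± 785 units and the peptide carrier Slc15a1 563 ± 82.9. Tmprss15, the enteropeptidase that activates trypsinogen, ran from 2184 (WT 6) to 5457 (WT 1) normalised reads.

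Structural genes of the epithelium varied about as much as other abundant genes. Vil1, the villin of the microvillus core, averaged 2839.9 ± 203 units and Epcam, an adhesion protein of all gut epithelium, 3274 ± 128 (CV 4.68%). These are among the steadier members of their lists. The 12 microvillus genes had a median CV of 12.6% with a highest of 20.1%, and the 13 keratin and junction genes 14.3%, with Krt18, the partner of Krt8, at 22.4%. Of the transcription factors that hold intestinal identity, Hnf4a averaged 465 ± 89.1 and Klf4, a factor of mature villus cells, 554 ± 98.2. Elf3, an epithelial ETS factor, was the least even of the 16, with 3150.1, 1998, 2581, 5648 and 4519 normalised reads (CV 41.5%). Among drug-metabolising genes Cyp4f14 was steady (CV 4.27%), while Cyp2c66 had 432, 413, 654, 30.9 and 257 normalised reads, WT 5 being far below the other 4.

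Vitamin and mineral genes held both extremes. Rbp2 had a CV of 5.11%, with 103546 to 117204 normalised reads. S100g, the calcium-binding protein calbindin-D9k, had 43.0, 236, 78.9, 27.9 and 21.7, with WT 3 well above the rest. Bco1, which cleaves beta-carotene to retinal, had 1006, 609.6, 305, 1117 and 2146. The metallothionein gene Mt1 had 896, 979, 779.6, 2592 and 1449, and Trpv6, an apical calcium channel, had no read in any library, which allows up to 3 reads in each, for counting error only.

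The tissue label was checked against markers of neighbouring organs and segments. Of 11 genes of stomach 7 were in the table, none reached a mean of 10, and their summed level was 0.145 to 1.04 units. The 13 pancreatic enzyme genes in the table summed to 14.7 to 49.3 units, mostly from Clps, the colipase (15.7 ± 12.6), and Cela1, an elastase (8.48 ± 2.03). The 8 liver genes in the table came to 30.5 to 61.0, nearly all from Cps1, which enterocytes also express (43.7 ± 12.9). Segment lists did not separate as cleanly. The ileal list summed to 1498 ± 116, above the duodenal list at 479.6 ± 49.0 and the colonic list, which ran from 205 to 303. Within the ileal list Fabp6, the bile acid-binding protein, had no read in any library and Slc10a2, the bile acid carrier of the brush border, stood at 5.44 ± 1.68, while Slc51b, part of the exporter of bile acids to the blood, was at 353 ± 75.5 and Slc7a9, an amino acid transporter also found upstream of the ileum, at 323 ± 39.5. Within the duodenal list Lct, lactase, which is also high in the jejunum, averaged 290.5 ± 60.5 and Gata4, a factor of the proximal intestine, 68.8 ± 11.1, while Pdx1 was at 0.677 ± 0.353.

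Markers of the other epithelial cells and of the wall were present in every library. Goblet cell genes summed to 12412 ± 2208 units, led by Tff3, a trefoil peptide (4904 ± 785), and Zg16, a lectin of the mucus (4425 ± 618). Enteroendocrine genes summed to 497 ± 63.5, led by the hormones Sct (122 ± 22.6) and Gip (111 ± 24.8). Stem cell genes were low, at 56.6 ± 8.34 in sum, with Olfm4 at 34.4 ± 7.72 and Lgr5 at 0.366 ± 0.125. Tuft cell genes summed to 41.6 ± 16.6, from 22.9 in WT 5 to 68.5 in WT 3, and had a median CV of 41.5%. Trpm5, a channel of these cells, had the lowest CV of the list, at 9.85%.

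Lists of plasma and B cells, smooth muscle and T cells summed higher than those of enteroendocrine, stem and tuft cells. The means of the endothelial and nerve and glia lists were lower than all of these, but not in every library. In WT 5 they had 33.2 and 34.2 units, above the tuft list at 22.9. In WT 4 the nerve and glia list, at 51.4, was above the tuft list at 40.4 and the stem cell list at 48.3. Plasma cell and B cell genes summed to 10649.7 ± 2352 units, through Igkc, the kappa light chain constant gene (7583 ± 1858), and Igha, the constant gene of immunoglobulin A (1503 ± 213). T cell genes came to 1597 ± 122, led by Gzma, a granzyme of intraepithelial lymphocytes, which was among the steadiest marker genes (919 ± 67.0, CV 4.53%). Smooth muscle genes summed to 3135 ± 562, fibroblast genes to 284 ± 32.6, myeloid and mast cell genes to 483 ± 121, endothelial genes to 27.3 ± 4.83 and genes of nerves and glia to 33.9 ± 11.8. MHC class II genes were high and even, at 9037 ± 470 in sum, led by Cd74, the invariant chain (4223 ± 485).

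**Figure D2:**
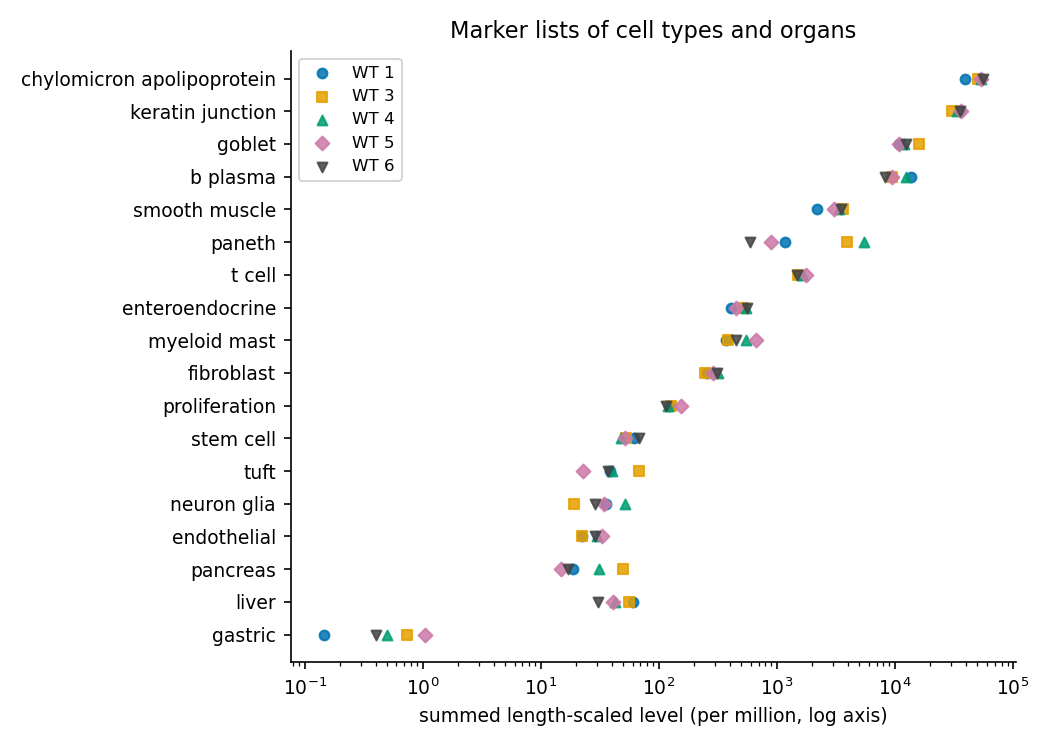
Summed length-scaled level (units, log axis) of marker lists of cell types and neighbouring organs, with 1 marker per WT library. Apolipoprotein genes lie near 50560 units and stomach genes at or below 1.04; of the lists drawn the Paneth list is the most spread, from 591 to 5496.

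Most genes differed moderately between the WT mice. The median CV was 19.6% over the 14009 genes with a mean of 10 or more, and the median SD of log2(value + 1) was 0.28. The median biological CV estimated by edgeR, which sets counting error aside, was 21.7%. That estimate shares information over all genes, so it is not each gene's own CV with counting error taken away. The median CV fell from 29.7% for genes with means of 10 to 100 normalised reads to 16.2% at 100 to 1000, 14.0% at 1000 to 10000 and 13.3% above that. Counting alone gives 17.1%, 5.95%, 2.23% and 0.750% in these ranges, so that counting error was a small part of the spread at high levels. In 931 genes, 6.65% of the 14009, the CV was above 50%, and in 1830 it was below 10%.

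**Figure D3:**
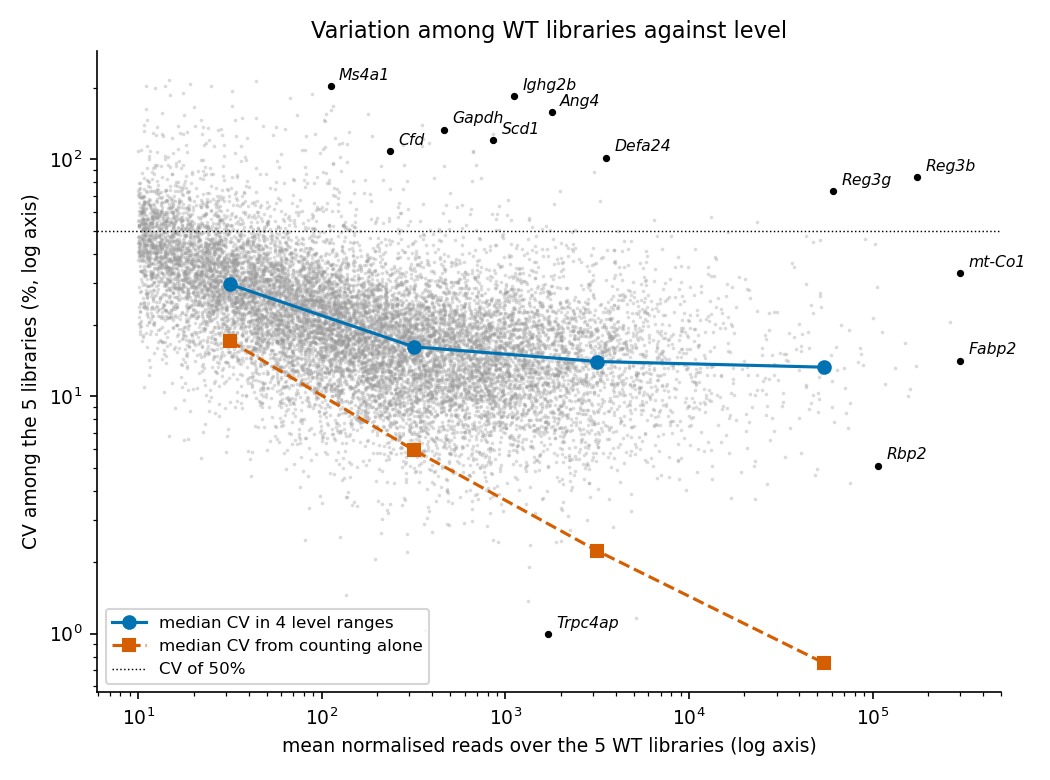
CV among the 5 WT libraries (%, log axis) against the mean of normalised reads (log axis) for 14009 genes, with the medians of 4 level ranges and the CV that counting alone gives. Reg3b and Reg3g stand apart among the most abundant genes at 84.3% and 73.3%, and Trpc4ap lies lowest at 0.991%.

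No library was a near copy of another, and which one stood apart by single genes depended on the measure. Pairwise correlations across genes, on log2(value + 1), ran from 0.964 (WT 3 and WT 5) to 0.977 (WT 3 and WT 4), and genes are not independent replicates. Of the 14009 genes 23.1% had their highest value in WT 1, 19.9% in WT 3, 17.5% in WT 4, 20.9% in WT 5 and 18.7% in WT 6. The lowest value fell in WT 1 for 23.6%, WT 3 for 20.9%, WT 4 for 16.9%, WT 5 for 20.8% and WT 6 for 17.8%. In WT 5, 130 genes stood more than 2 times above the next library, against 22 to 39 in the other 4. A second measure was a gap to the next library of more than 0.71 of the range of the 5 values. By it 190 genes lay far above the rest in WT 5 and 146 in WT 1, against 90 to 95 elsewhere. Far below the rest lay 86 genes in WT 1, against 25 to 44 in the other 4. Counts below are to be read against these shares.

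The secreted lectins Reg3b and Reg3g made the largest swing among abundant genes. Reg3b had 31178, 51171, 130047, 330413 and 333499 normalised reads in WT 1, 3, 4, 5 and 6. Reg3g, also on chromosome 6, had 23621, 17786, 46379, 108311 and 108733. WT 5 and WT 6 were high for both genes, WT 4 lay between, and WT 1 and WT 3 were low. Together Reg3b and Reg3g took from 0.301% of the reads in WT 1 to 2.55% in WT 5. Of the 5 measured regenerating genes only these 2 had a CV above 50%. Reg1, which lies between them on the chromosome, had a CV of 15.6%. Other host defence genes ranged widely in their spread, from Lypd8, which keeps flagellated bacteria from the epithelium, at a CV of 7.13%, and Pigr, the carrier of immunoglobulin A, at 14.2%, to Retnlb at 189%. Saa1, an acute-phase protein, had 12.3, 30.4, 229, 86.8 and 577, in a different order. Of the 11 measured genes in the list of regenerating and antimicrobial genes 5 had a CV above 50%.

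Most Paneth cell genes varied together, with WT 4 high and WT 6 low. All 10 measured genes of the Paneth list had a CV above 50%, with a median of 114%, and the list summed to 1163, 3921, 5496, 886 and 591 units in WT 1, 3, 4, 5 and 6. Defa24, an alpha-defensin (chromosome 8, 21734494 to 21735471), had 1409, 4492, 9429, 1383 and 947 normalised reads, Lyz1, the Paneth lysozyme, 1508, 2103, 4415, 1309 and 602, and Mptx2, a pentraxin of these cells, 171, 430.3, 1009, 114 and 23.8. WT 4 was high, WT 3 second and WT 6 low for each. Of 15 alpha-defensin genes with a mean of 10 or more 14 were highest in WT 4 and 14 lowest in WT 6. These genes are near-identical neighbours, so that reads may have been split between them or lost, and they are not independent of each other. Mmp7, which activates the defensins, did not follow them, at 192, 137, 184, 456 and 191, and the stem cell list ran from 48.3 (WT 4) to 68.3 (WT 6) units.

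A further set of secretory and defence genes was high in WT 3. Ang4, an antimicrobial ribonuclease of Paneth and goblet cells, had 861, 6814, 832, 38.9 and 398 normalised reads, and Retnlb, a goblet cell resistin-like peptide, 10.2, 388, 5.85, 12 and 27.1. Clca1, a mucus-processing protease, had 23202, 45058, 16631, 12654 and 19144. WT 3 was highest for each. The 3 gasdermin C genes measured, Gsdmc2, Gsdmc3 and Gsdmc4, were highest in WT 3 and lowest in WT 6, as with Gsdmc4 at 512, 1057, 137, 44.9 and 37.9. Of 10 goblet genes 8 were highest in WT 3, though their median CV was 22.8% and 2 passed 50%, and of 8 measured tuft cell genes 6 were highest there and 7 lowest in WT 5. Muc2, the main gel-forming mucin, had 5357, 5394, 2618, 2386 and 3953, with WT 1 level with WT 3.

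Genes of B cells and of lymphoid follicles were high in WT 5 alone. Ms4a1, the B cell antigen CD20 (chromosome 19, 11249675 to 11266241), had 5.11, 28.4, 1.95, 517 and 5.41 normalised reads in WT 1, 3, 4, 5 and 6. Cr2, a complement receptor of B cells and follicular dendritic cells, had 71.8 in WT 5 and at most 1.02 elsewhere. All 12 measured genes of a B cell list put together after these values were seen were highest in WT 5, so that their count is a description. Constant genes of switched and unswitched heavy chains followed, with Ighm at 122, 168, 107, 1222 and 132 and Ighg2b at 127, 384, 136, 4813 and 139.7.

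The same library was high for genes of the epithelium over follicles and of follicle stroma. Ccl20, the chemokine made there, had 35.8, 55.7, 35.1, 373 and 19.5 normalised reads, Cxcl13, which draws B cells into follicles, 12.3, 24.3, 15.6, 273 and 40.1, and Spib, a factor of B cells and M cells, 58.3, 98.2, 57.5, 310.2 and 49.8. Gp2, the M cell receptor, had 50.9 in WT 5, 4.09 in WT 1 and none elsewhere. Immunoglobulin A did not share the rise: Igha had 33624, 28299.8, 31970.4, 25831 and 25780.5, and Jchain, its joining chain, was lowest in WT 5 at 13744. Proliferation genes were highest in WT 5 for 13 of 17, such as Cdc20 at 47.0, 34.4, 51.6, 157 and 60.6, while Pcna was not. The part that lymphoid follicles in the sampled piece may have in these values was not tested.

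Genes of fat cells split the libraries into 3 levels. Cfd, the adipocyte protease adipsin (chromosome 10, 79890853 to 79892655), had 1.02, 472, 0, 169 and 531 normalised reads in WT 1, 3, 4, 5 and 6, and Adipoq, adiponectin, 0, 188, 0, 22.9 and 246. WT 3 and WT 6 were high, WT 5 lay between, and WT 1 and WT 4 were at or near 0. Some other genes that fat cells express strongly had the same order or nearly so. Scd1, a fatty acid desaturase, had 51.1, 1366, 60.4, 373 and 2436. Car3, a carbonic anhydrase, had 7.16, 722, 5.85, 196 and 996, and Lpl, lipoprotein lipase, 8.18, 195, 16.6, 60.9 and 361. Not all did. In a list of 8 metabolic genes of fat cells, added after values were seen, 4 had a CV above 50%. That list summed to 519, 623, 559, 464 and 898 units, so that WT 6 was highest but WT 5 lowest. Of the 8 measured genes in the adipocyte list 7 had a CV above 50%. The exception was Cidec, a lipid droplet protein also made by enterocytes, with 9176, 6903, 8358, 9706 and 12599 (CV 22.5%), which sets the sum of the list. Without it the listed genes summed to 3.05, 109, 5.07, 36.9 and 140.1 units.

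**Figure D4:**
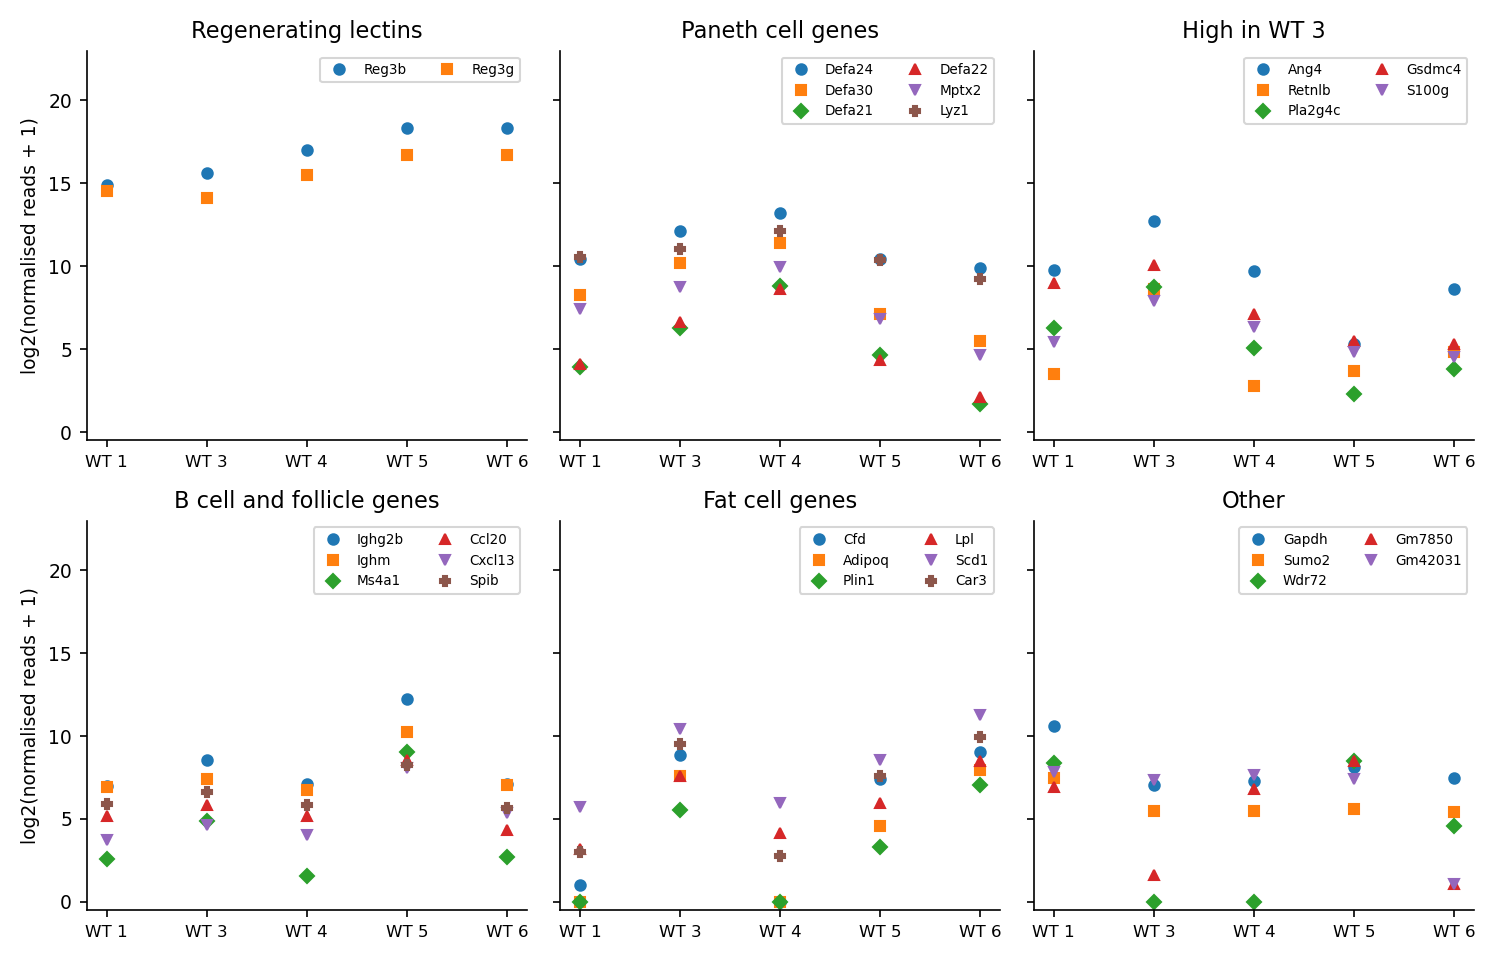
Values of log2(normalised reads + 1) in each of the 5 WT libraries for genes of 6 groups named in the text. Paneth cell genes peak in WT 4, B cell and follicle genes in WT 5, and the fat cell genes drawn in WT 3 and WT 6. Of the fat cell genes, Cfd and Adipoq lie at or near 0 in WT 1 and WT 4.

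Some genes were nearly off in 1 mouse and on in another. In 17 genes at least 1 library had 3 reads or fewer while another had 100 or more normalised reads. Of these, 4 were named or described as defensins and 2 were immunoglobulin constant genes, and several others belong to the B cell and fat cell sets above. Wdr72, a WD-repeat protein gene, had 327, 0, 0, 355 and 22.7, and the pseudogene Gm7850 had 119, 2.03, 111, 355 and 1.08. The long non-coding gene Gm42031 had 228, 162, 199 and 171 in WT 1, 3, 4 and 5 and 1.08 in WT 6. All 3 were low or near 0 in WT 6, and Wdr72 and Gm7850 were both highest in WT 5.

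Genes of general use were among those in which WT 1 differed. Gapdh, the glycolytic enzyme often taken as a reference gene, had 1556, 131, 158, 281 and 179.8 normalised reads, WT 1 being 5.53 times the next library. Gapdh has many near-identical pseudogene copies, so its level depends on how reads with several matches were treated, which is not given in the sources used here. Sumo2, a ubiquitin-like modifier with such copies too, had 174 against 41.1 to 46.9. Smooth muscle genes were lowest in WT 1 for 10 of 12, and their sum was 2191 units there and 3076 to 3604 elsewhere. Cytosolic ribosomal protein genes, picked by symbol, which also took in Rps19bp1, held 1.21%, 1.61%, 1.60%, 1.26% and 1.09% of the reads. Of 81 measured, 41 were highest in WT 3 and 34 in WT 4, while 35 were lowest in WT 6 and 28 in WT 1.

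Genes that respond within minutes or hours also moved as groups. Of 14 measured immediate early genes 10 were highest in WT 6 and 6 had a CV above 50%. Fosb had 4586, 703, 1271, 4067 and 5709 normalised reads, Egr1 1313, 369.6, 301, 973 and 1638, and Atf3 8069, 2450.4, 3746, 6559 and 11479, with WT 3 and WT 4 low for all 3. Interferon-induced genes were highest in WT 6 for 9 of 16 and lowest in WT 3 for 11. Isg15, a ubiquitin-like modifier, had 1147, 1381, 2717, 2115 and 3399, with WT 6 highest but WT 1 lowest. The heat shock genes Hspa1a and Hspa1b stood out in WT 4, Hspa1b having 183, 158, 1207, 304 and 470.0. Of 18 clock genes 8 were highest in WT 4 and 10 lowest in WT 5, and none had a CV above 50%. Nr1d1, a repressor of the clock, had 2505, 2148, 2449, 495 and 1501. The times at which the mice were killed were not stated in the labels used here.

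Drug-metabolising genes were lowest in WT 5 for 20 of 26, and none was highest there. Their sum was 7127 units in WT 5, 8765 in WT 6 and 10335 to 10642.5 in the other 3. Their median CV of 31.1% was above the 19.6% of all genes, with 3 of 26 past 50%. Haemoglobin genes, a sign of blood in the tissue, were highest in WT 6, with Hbb-bs at 36.8, 39.5, 95.5, 154 and 311.

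**Figure D5:**
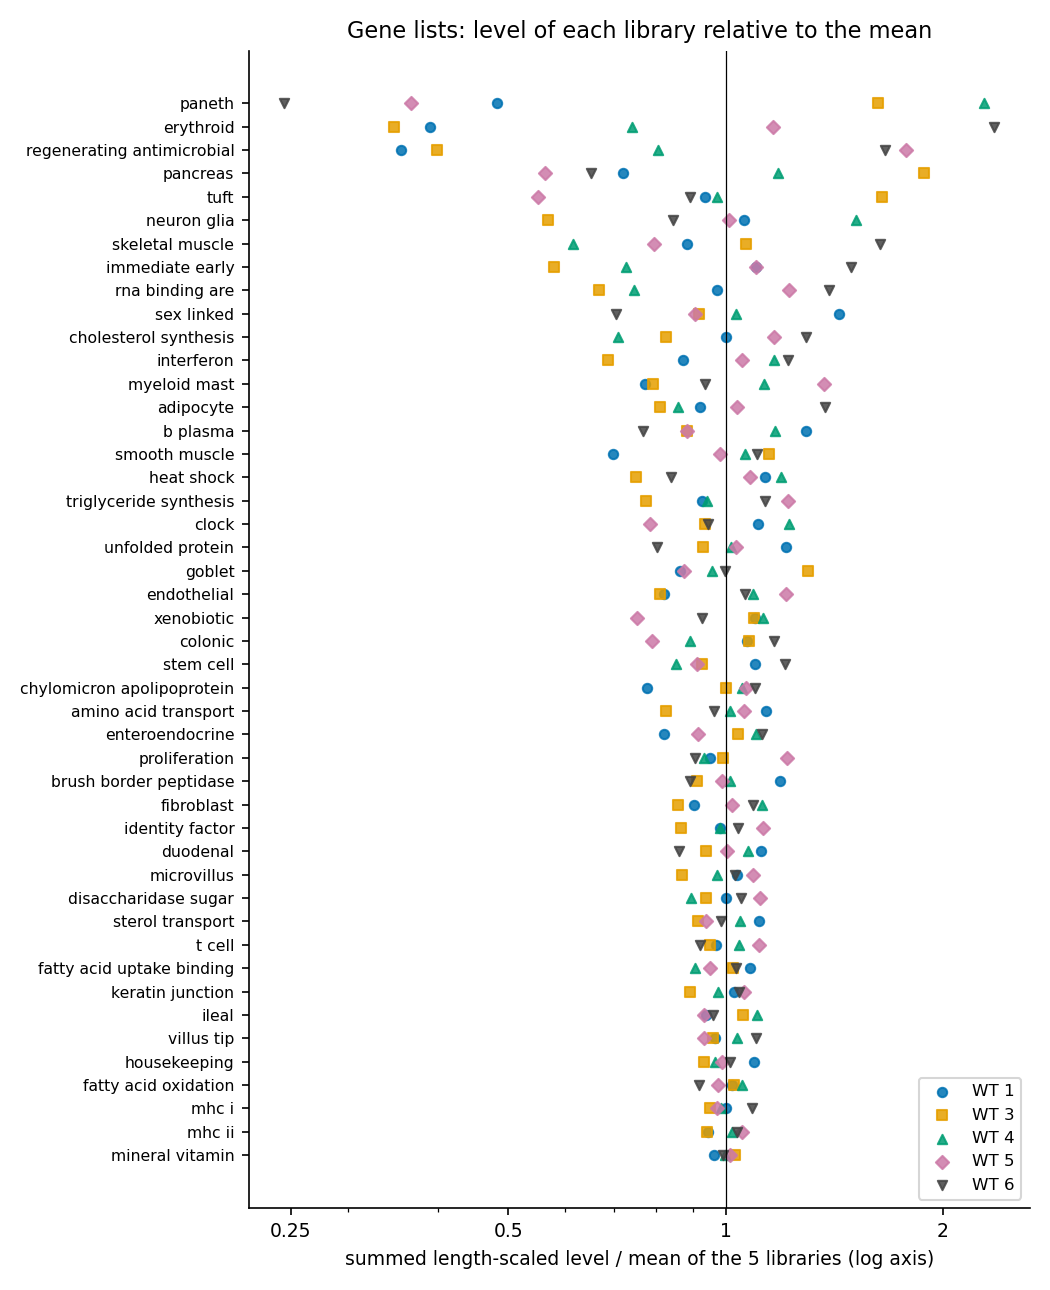
Summed length-scaled level of 46 gene lists in each WT library, divided by the mean of the 5 (log axis) and ordered by their spread. Among the lists drawn, which leave out those added after values were seen, Paneth cell genes are spread the most, from 591 to 5496 units. Vitamin and mineral, MHC and housekeeping lists lie close to 1, which describes sums and not each gene. Rbp2 gives 15380 of the 20563 vitamin and mineral units, and 5 of 19 measured genes of that list have a CV above 50%. B2m gives 11991 units to both the MHC class I sum (20526) and the housekeeping sum (22422.5).

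At the other end, a few genes had very low CVs. They are the lowest picked from many genes over 5 libraries. Counting alone gives a median CV of 2.23% at means of 1000 to 10000. For Tmem120a counting alone gives 1.41%, which is more than its CV below, so these genes are not shown to be constant. Among genes with a mean of 1000 or more, Trpc4ap, a substrate adaptor of a ubiquitin ligase, had 1717, 1742, 1704, 1697 and 1717 normalised reads (CV 0.991%). Tmem120a, a nuclear envelope protein, had 5172, 5157, 5201, 5112 and 5048 (CV 1.16%), and Pex19, an import factor of peroxisomal membranes, 1344, 1348, 1304, 1319.8 and 1322 (CV 1.37%). Mier1, Setd3, Agpat3, Trpm4, Atp9a, Hnrnpk and Slc35e1 made up the 10 lowest, up to 3.02%. Of usual reference genes Tpt1 had a CV of 5.33%, B2m 9.37%, Eef1a1 15.8%, Actb 21.5% and Gapdh 133%.

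Elavl1, the gene deleted in the other group of the series, was even across the WT mice (chromosome 8, 4285382 to 4325413). It had 695, 632, 630.5, 663 and 709 normalised reads (CV 5.40%) and a length-scaled level of 8.84 ± 0.443 (SD, n = 5). Of the 11 measured RNA-binding genes listed with it, Zfp36, an mRNA-destabilising protein that is also an immediate early gene, was the highest and the least even, at 316 ± 144 units (CV 47.6%). Xist had no read in any WT library, and Ddx3y, Uty, Eif2s3y and Kdm5d of the Y chromosome were read in all 5.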

How the data were processed

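RNA-seq of 5 WT whole-tissue samples of proximal jejunum was used. The deposited signal values are gene-level counts that the authors scaled by 1 size factor per library, made with HISAT2 2.0.5, featureCounts 1.5.0-p3 and DESeq2 1.20.0 on mm10, per the submitters' processing notes. Not given in the sources used here were the annotation release, the strand setting, the treatment of reads with several matches and any step against ribosomal RNA. Every value was a whole multiple of what 1 read is worth, within 0.001, in 100% of genes, so reads were recovered. Not used were 2 sample columns for which the labels name no sample.

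Gene length is the table's own, and it equals the summed exons of GENCODE M21 for 96.3% of genes. The biological CV came from edgeR 4.0.16 on recovered reads, with TMM factors and 1 mean for all libraries, and was tested on simulated data. Other steps used Python 3.11.15 with pandas 2.3.3 and numpy 2.4.6. No groups were compared and no p-value was computed. With 1 library per mouse, spread between mice and spread from dissection or library making cannot be told apart.

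Named genes were the 20 highest by reads and by length-scaled level, up to 4 by level and 2 by CV from each list, the 20 with the highest CV at a mean of 100 or more, the 10 with the lowest CV at a mean of 1000 or more, up to 3 per non-coding class, and Elavl1. Other genes named beside them were chosen after their values were seen, and some genes are not reported here. The members, the 48 gene lists and these rules were chosen with earlier results of these data known, and 6 further lists were added after values were seen. Alternatives were other scalings, other minimum levels, other CV thresholds, totals without mitochondrial or short genes, and each library left out.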

Additional observations from a re-analysis of the deposited data

Results flagged for a closer look

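In 23 of 155 values examined (14.8%), 1 library lay far from the other 4, by a gap that took most of the range of the 5. Chance gives about 1 in 20 such gaps for normally distributed values. The values examined were not drawn at random, and some genes were chosen for a high CV, which favours such gaps. Over all 14009 genes the gap lay above in 146, 92, 90, 190 and 95 genes in WT 1, 3, 4, 5 and 6. It lay below in 86, 44, 25, 26 and 28. Of the 23 values WT 5 accounted for 11, WT 1 for 6, WT 3 for 5, WT 6 for 1 and WT 4 for none.

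WT 5 was far above the rest, in normalised reads, for Ms4a1 (517), Cr2 (71.8), Ighm (1222), Ighg2b (4813), Ccl20 (373), Cxcl13 (273), Spib (310.2), Gp2 (50.9), Cdc20 (157) and Mmp7 (456). The proliferation list summed to 155 units there, against at most 126.

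WT 3 was far above the rest for Ang4 (6814), Retnlb (388), Gsdmc3 (65.8), S100g (236) and Rbp2 (117204). The Rbp2 gap is a small one in size, since the next library had 106571.

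WT 1 was far above the rest for Gapdh (1556), Sumo2 (174), Mttp (109333) and Uty (406), and far below for Apoa1 (168788) and CT010467.1 (5133). WT 6 was far above the rest for Gm28437 (7707).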

How the results depend on the processing

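Of 107 values under other settings, leave-outs aside, 91 stayed close to the reported one and 16 moved. Shares and length-scaled sums are ratios within a library, so library totals and TMM factors could not change them. Those unchanged values are among the 91. The rules for close were also wide. The Paneth list counted as close at a median of 1163 units against a mean of 2411, and 19162 genes at a mean of 1 or more counted as close to 14009. The minimum level mattered most. With a mean above 0, 22887 genes entered. The median CV was 25.9% at a mean of 1 or more, 16.6% at 50 or more and 33.0% above 0, and the biological CV 26.4%, 19.3% and 31.5%. Genes with a CV above 50% then numbered 5177, 235 and 8902, and 3442 and 107 passed 30% and 100%. Without mitochondrial genes the top 10 held 10.6%, the top 100 34.8% and protein-coding genes 98.6%. Under library totals, genes more than 2 times above the next library in WT 1 fell to 16.

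With each library left out in turn, such genes numbered 51 to 69 in WT 1, 45 to 68 in WT 3, 58 to 68 in WT 4, 161 to 197 in WT 5 and 55 to 104 in WT 6, since fewer libraries compete. Genes with a CV above 50% ranged from 836 to 999 and the median CV from 18.2% to 19.6%. Mean Ms4a1 fell to 10.2 without WT 5 and mean Gapdh to 187 without WT 1. No paired analysis was possible because only 1 group was described and no result came from a test.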
